A study of Homo sapiens with 11 samples.

Results

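RNA from human cells depleted of Tat-SF1 with an shRNA called A was compared with RNA from cells carrying an shRNA against the green fluorescent protein (GFP). The comparison was made for the values of 14496 genes and for the use of 220978 exon probe sets within those genes. It rests on 6 of the 11 arrays of the series, chosen by their titles: 3 of shRNA A and 3 of GFP shRNA. Arrays of a second Tat-SF1 shRNA, B (3 arrays), and of the empty vector (2 arrays) were left out of it. They entered the filter on dim probe sets and otherwise appear only where named. All cells were T-REx-293, a derivative of the HEK293 embryonic kidney line in which tetracycline switches on a chosen construct. Both groups stably carried a GFP plasmid, and both were given tetracycline at 2.5 µg/mL for 72 h to induce their shRNA. The GFP shRNA group therefore had an shRNA with a target in the cell, and every difference below is relative to that state. The series design calls the replicates biological, and it does not say how many clones stand behind each construct. The RNA came from whole cultures, so fewer cells of a type and less RNA per cell cannot be told apart.

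Tat-SF1, encoded by HTATSF1, was first described as a cellular cofactor of the HIV-1 activator Tat. It is related to the yeast splicing protein Cus2, contacts the SF3B1 subunit of the U2 snRNP, and has been linked to both transcription elongation and splicing. The U2 snRNP recognises the branch point of the intron together with U2AF, which binds the polypyrimidine tract. Both gene levels and the use of single exons are therefore of interest after depletion. An exon array carries a small group of probes, a probe set, for each exon or part of an exon. The value of a gene on an array was the median log2 value of its probe sets. The splicing index of a probe set was what remained of its log2 value after subtracting the gene value of that array. A difference in it means that the probe sets of a gene did not move alike, and it does not tell which of them moved.

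The upstream sequences of HTATSF1 and of 3 of the 12 genes with much lower values described below (CBS, CDCA4 and SLC25A1) are shown first, because the share of genes with lower values differed with promoter base composition. Each is the 250 bases before the RefSeq start site, 5′ to 3′ on the strand of the gene, in build GRCh38.p14, with capitals for the GC box GGGCGG or its reverse complement CCGCCC, the core of the binding sequence of Sp1. The HTATSF1 sequence lies at chrX:136496979-136497228 on the plus strand. That of CBS lies at chr21:43076378-43076627, that of CDCA4 at chr14:105021084-105021333 and that of SLC25A1 at chr22:19178737-19178986, all on the minus strand.
HTATSF1: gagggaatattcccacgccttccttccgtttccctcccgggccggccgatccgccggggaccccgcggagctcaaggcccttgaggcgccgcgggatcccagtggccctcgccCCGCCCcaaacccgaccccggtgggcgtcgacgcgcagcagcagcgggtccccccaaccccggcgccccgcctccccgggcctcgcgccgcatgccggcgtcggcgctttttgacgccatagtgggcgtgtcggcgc
CBS: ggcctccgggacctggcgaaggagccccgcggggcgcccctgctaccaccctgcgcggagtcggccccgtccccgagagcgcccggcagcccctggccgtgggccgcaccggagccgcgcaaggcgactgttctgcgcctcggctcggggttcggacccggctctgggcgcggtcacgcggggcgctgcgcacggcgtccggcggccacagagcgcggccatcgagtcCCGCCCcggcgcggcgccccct
CDCA4: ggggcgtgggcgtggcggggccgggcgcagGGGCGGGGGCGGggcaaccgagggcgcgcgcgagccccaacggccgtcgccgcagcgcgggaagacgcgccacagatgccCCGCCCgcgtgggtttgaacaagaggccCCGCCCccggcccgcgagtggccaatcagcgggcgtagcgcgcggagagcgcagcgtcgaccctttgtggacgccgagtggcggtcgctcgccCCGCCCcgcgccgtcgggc
SLC25A1: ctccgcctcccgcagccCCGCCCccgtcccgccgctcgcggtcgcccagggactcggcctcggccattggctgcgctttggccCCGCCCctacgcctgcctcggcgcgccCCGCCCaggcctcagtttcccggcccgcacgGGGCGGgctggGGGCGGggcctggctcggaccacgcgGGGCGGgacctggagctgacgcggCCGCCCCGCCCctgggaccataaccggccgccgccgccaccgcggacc
In this order the windows were 75.6%, 80.8%, 80% and 81.6% G or C and held 1, 1, 5 and 8 GC boxes, with overlapping matches counted separately. A GC box on either strand was present in 42.3% of the 27305 promoters of that table, in 62.2% of the 11638 tested genes that had a sequence there, and in 71.6% of those with a GFP shRNA mean of 9 or above. It was in 5 of the 8 matched genes (62.5%) among the 12 named below as lower. It was also in all 6 matched genes among the 12 named as higher.

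The targeted gene was lower on every shRNA A array. HTATSF1 stood at 8.53, 8.63 and 8.49 on the GFP shRNA arrays and at 8.29, 8.21 and 8.22 on the shRNA A arrays, on the log2 scale. The groups did not overlap, and the means were 8.55 ± 0.0714 and 8.24 ± 0.0403 (SD, n = 3 each). The difference was -0.31 with a standard error of 0.0597, and its p was 0.000311 unadjusted and 0.221 after Benjamini-Hochberg adjustment over all genes by limma. An exact two-sided permutation test over the 20 splits of the 6 arrays gave p = 0.1, the smallest it can give. Array medians lay near 7.9, where dim probe sets crowd. If that median is subtracted as a background on the linear scale, the signal was 136 ± 18.7 with GFP shRNA and 63.0 ± 8.59 with shRNA A, or 46.3% of the GFP shRNA signal. Under that assumption the log2 difference understates a change of a gene this close to the median. Whether the median is background was not tested.

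All 14 HTATSF1 probe sets in use, of 17 on the array, were lower with shRNA A, by amounts between -0.45 and -0.05. Of these 14, 8 were lower without overlap between the groups, as were 11.9% of all 220978 probe sets tested. The largest difference was at probe set 3992538, which read 8.53, 8.77 and 8.61 with GFP shRNA and 8.30, 8.09 and 8.17 with shRNA A. Probe sets 3992524, 3992527 and 3992540 had means of 8.00, 8.10 and 8.13 with GFP shRNA and differed by -0.05, -0.07 and -0.08. These are near the array median, and their splicing index was higher with shRNA A by 0.26, 0.25 and 0.23. Their place near the median moved with that index, and its part in it was not tested. Between the Tat-SF1 shRNAs the gene differed by 0.07 (A minus B, unadjusted p = 0.317 by limma over the 11 arrays).

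**Figure D1:**
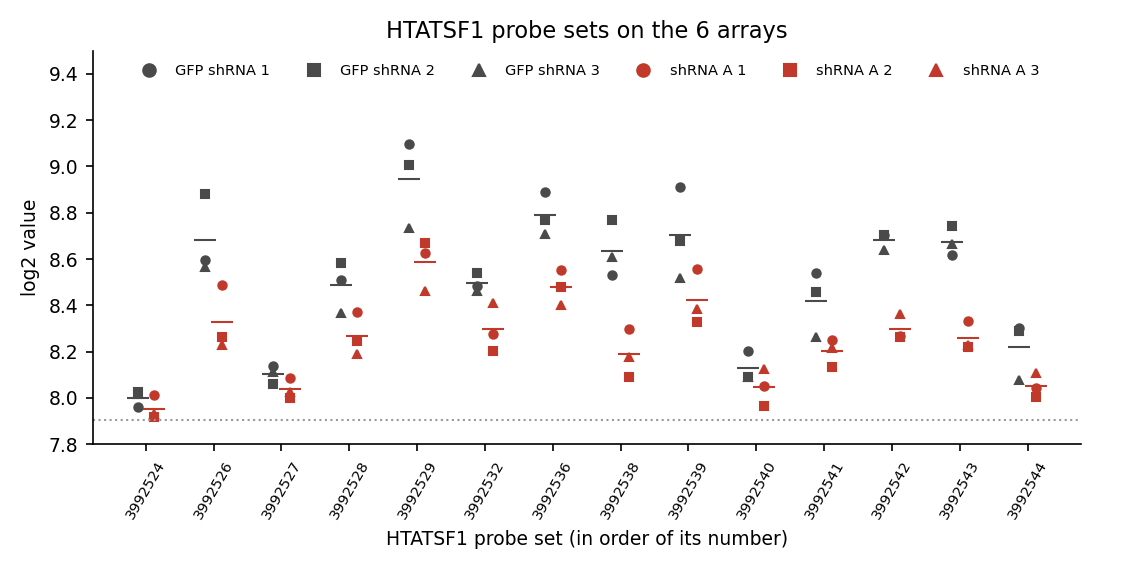
Log2 value of each of the 14 HTATSF1 probe sets in use, in the order of their numbers, on the 3 GFP shRNA and 3 shRNA A arrays; points are arrays, dashes are group means and the dotted line is the mean array median. The shRNA A mean is the lower at all 14, and the gap is small at the probe sets close to the dotted line.

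Across all genes no difference passed the threshold. Of 14496 genes, 0 had an adjusted p under 0.05 in limma (a background of 0%), and the smallest adjusted p was 0.0948. An unadjusted p under 0.05 was reached by 1613 genes (11.1%), of which 1377 were lower (9.5%) and 236 higher (1.63%) with shRNA A. All 3 shRNA A arrays lay below all 3 GFP shRNA arrays for 2173 genes (15%) and above them for 353 (2.44%). The mean was lower for 10158 genes (70.1%), and the median difference was -0.0238, or -0.0145 after quantile normalization.

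The imbalance differed with the level of the gene. The mean log2 value of the 3000 brightest genes was 9.34 ± 0.042 with GFP shRNA and 9.26 ± 0.0258 with shRNA A (SD, n = 3 each). Each GFP shRNA array lay above each shRNA A array, with GFP shRNA 1 the highest at 9.38, and the exact two-sided permutation p was 0.1, the smallest possible. Genes with a mean level under 8 had a median difference of 0.000228 and were lower in 49.7% of cases. Those between 8.2 and 8.5 had a median of -0.048 and were lower in 78.8%. Those between 9.5 and 10 had a median of -0.0959 (-0.0577 after quantile normalization) and were lower in 78.3%. By promoter composition, 57% of genes with 40 to 50% G or C were lower, against 82% of those with 80% or more. Among genes with a level of 8.5 or above this contrast was small. There 80.2% of genes with a G or C content of 70% or more were lower, against 78.7% of the others. Non-overlapping lower values were seen in 27.3% of the former and in 21.1% of the latter. Array brightness moved with the groups in every gene comparison below, and its part in them was not tested.

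**Figure D2:**
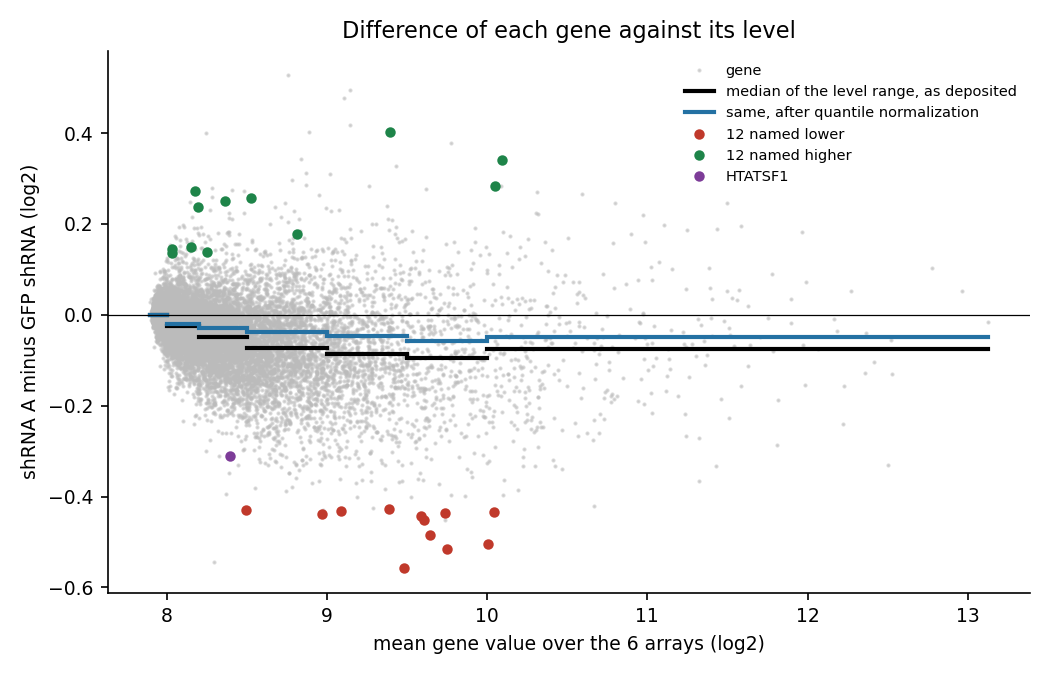
Difference in log2 gene value, shRNA A minus GFP shRNA, against the mean log2 level over the 6 arrays for the genes tested (grey); steps are medians of the level ranges, black as deposited and blue after quantile normalization, and coloured points are HTATSF1 and the 12 lower and 12 higher genes described in the text. The median as deposited lies at 0.000228 in the lowest range and at -0.0959 between 9.5 and 10.

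Genes much lower with shRNA A over many probe sets were CBS, STUB1, RANGAP1, EEF1D, RAC3, ADAMTS1, CDCA4, SDHA, SLC25A1, OGFR, IDH2 and PAGR1. They are the 12 largest differences among the 1391 genes whose arrays did not overlap, that had at least 6 probe sets in use and at least 75% of these in the direction of the gene. Their differences ran from -0.56 to -0.43, their adjusted p in limma from 0.221 to 0.389, and the next gene in order was PPP4C at -0.43. As the groups were required not to overlap, this is a description of size.

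Enzymes and carriers of metabolism are given first. CBS, which condenses serine and homocysteine to cystathionine, read 10.20, 9.52 and 9.55 with GFP shRNA and 9.23, 9.03 and 9.34 with shRNA A (difference -0.56, standard error 0.162). GFP shRNA 1 stood well above the other control arrays, and without it the difference was -0.34. A near-identical copy of CBS, CBSL, is annotated in the human genome, so the value of CBS is uncertain. SLC25A1, the mitochondrial citrate carrier, read 10.56, 10.08 and 10.14 against 9.86, 9.90 and 9.71 (difference -0.43), and -0.28 without GFP shRNA 1. IDH2, the mitochondrial NADP-dependent isocitrate dehydrogenase, read 9.12, 8.51 and 8.49 against 8.33, 8.34 and 8.16 (difference -0.43), and -0.22 without that array. The same control array was high for ADAMTS1, a secreted metalloprotease, at 10.29 against 9.69 and 9.46 on its fellows and 9.39, 9.28 and 9.44 with shRNA A. Its difference of -0.44 became -0.21 without GFP shRNA 1. SDHA, the flavoprotein subunit of succinate dehydrogenase, read 9.88, 9.93 and 10.05 against 9.72, 9.32 and 9.51 (difference -0.44). SDHA has pseudogene copies, and how the probe sets divide between them was not tested.

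Other lower genes spread less among the control arrays than CBS, SLC25A1, IDH2 and ADAMTS1 did. STUB1, the ubiquitin ligase CHIP that acts with Hsp70, read 10.16, 9.98 and 9.88 with GFP shRNA and 9.5, 9.46 and 9.51 with shRNA A (difference -0.51, standard error 0.0895), and all 12 of its probe sets were lower. Without GFP shRNA 1 the STUB1 difference was -0.44. RANGAP1, the GTPase activator of Ran in nuclear transport, read 10.15, 10.30 and 10.32 against 9.65, 9.75 and 9.86 (difference -0.50, standard error 0.0913). EEF1D, a subunit of the exchange factor of translation elongation, read 9.96, 9.77 and 9.94 against 9.54, 9.40 and 9.26 (difference -0.49). The shRNA A arrays lay at least as tightly together as the control arrays for STUB1, and the groups were separate for all of these. The size of several of these depended on how probe sets were combined. With dim probe sets kept, EEF1D differed by -0.0239, RANGAP1 by -0.22 and RAC3 by -0.24. With the mean of probe sets as gene value, RAC3 and SDHA differed by -0.14, EEF1D by -0.19, PAGR1 by -0.23, CDCA4 by -0.24, RANGAP1 by -0.25, OGFR by -0.27, ADAMTS1 by -0.28 and CBS by -0.34. With the floor on the level of probe sets raised by 0.5, PAGR1 differed by -0.21, SDHA by -0.22, RAC3 by -0.23, and CDCA4 and IDH2 by -0.25.

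RAC3, a small GTPase, read 9.90, 9.85 and 9.75 with GFP shRNA and 9.37, 9.37 and 9.40 with shRNA A (difference -0.45, standard error 0.0764). PAGR1, a subunit of the histone methyltransferase complexes of KMT2C and KMT2D, read 9.62, 9.60 and 9.57 against 9.20, 9.07 and 9.24 (difference -0.43, standard error 0.0753). OGFR, the opioid growth factor receptor, read 9.47, 9.25 and 9.19 against 8.92, 8.75 and 8.94. It differed by -0.43. CDCA4, a nuclear protein tied to the cell cycle, read 9.42, 8.95 and 9.19 against 8.69, 8.70 and 8.86 (difference -0.44), with all 9 probe sets lower. RAC3 and PAGR1 had control and shRNA A arrays in narrow and separate ranges, whereas CDCA4 varied more among the control arrays than among those of shRNA A.

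CEBPE, a C/EBP transcription factor of granulocyte development, had the smallest p and is outside the rule above, since only 4 of its probe sets were in use; it was singled out after its values were seen. It read 8.45, 8.61 and 8.63 with GFP shRNA and 7.94, 8.01 and 8.11 with shRNA A, so that shRNA A placed it close to the array median. The difference was -0.54 with a standard error of 0.0667 and an adjusted p of 0.0948 in limma (0.0341 to 0.416 over the alternatives). It passed the threshold with the mean of probe sets as gene value and without GFP shRNA 1, where the difference was -0.60 and the adjusted p 0.0395. With shRNA B it read 8.37, 8.52 and 8.45, and A minus B was -0.43 (unadjusted p = 0.000168, adjusted p = 0.81 in limma).

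Genes with higher values were fewer and differed by less. Of 76 genes that met the same conditions, the 12 largest differed by 0.14 to 0.40, with adjusted p from 0.238 to 0.487 in limma. DESI1, an isopeptidase that removes SUMO, read 9.31, 9.23 and 9.03 with GFP shRNA and 9.39, 9.81 and 9.58 with shRNA A (difference 0.40, standard error 0.113). RAC1, a small GTPase of actin remodelling, read 9.93, 9.82 and 10.02 against 10.22, 10.14 and 10.43 (difference 0.34, standard error 0.101). RAC1 and its relative RAC3 thus lay on opposite sides, though neither passed the threshold. SUB1, the transcription coactivator PC4, read 9.80, 9.94 and 9.98 against 10.20, 10.10 and 10.27 (difference 0.28). MAGOH, a core protein of the exon junction complex, read 8.40, 8.27 and 8.53 against 8.59, 8.62 and 8.76 (difference 0.26). MAGOH has a close paralog, MAGOHB, and how its probe sets divide between them was not tested. NDUFC2, a subunit of complex I, read 8.68, 8.72 and 8.77 against 8.91, 8.83 and 8.97 (difference 0.18). With the mean of probe sets, DESI1 differed by 0.12, RAC1 by 0.16, SUB1 by 0.11 and MAGOH by 0.14, and RAC1 differed by 0.13 with dim probe sets kept.

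The other higher genes lay near the array median. UNC5D, a netrin receptor, read 8.11, 7.93 and 8.07 with GFP shRNA and 8.39, 8.30 and 8.24 with shRNA A (difference 0.27), and LCN10, a lipocalin, read 8.14, 8.24 and 8.34 against 8.59, 8.44 and 8.43 (difference 0.25). KNDC1 rested on shRNA A 1, at 8.68 against 8.10 and 8.16 on the other shRNA A arrays; its difference of 0.24 had an SE of 0.119 and was 0.06 without that array. ITGAD, an integrin alpha chain, SORCS2, a sortilin-like receptor, CHST2, a sulfotransferase, and VILL, a villin-like protein, differed by 0.15, 0.15, 0.14 and 0.14. With dim probe sets kept, KNDC1, ITGAD and CHST2 were lower rather than higher, by -0.0549, -0.00152 and -0.0187, and UNC5D, LCN10, SORCS2 and VILL differed by 0.0135, 0.0118, 0.0277 and 0.00627.

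**Figure D3:**
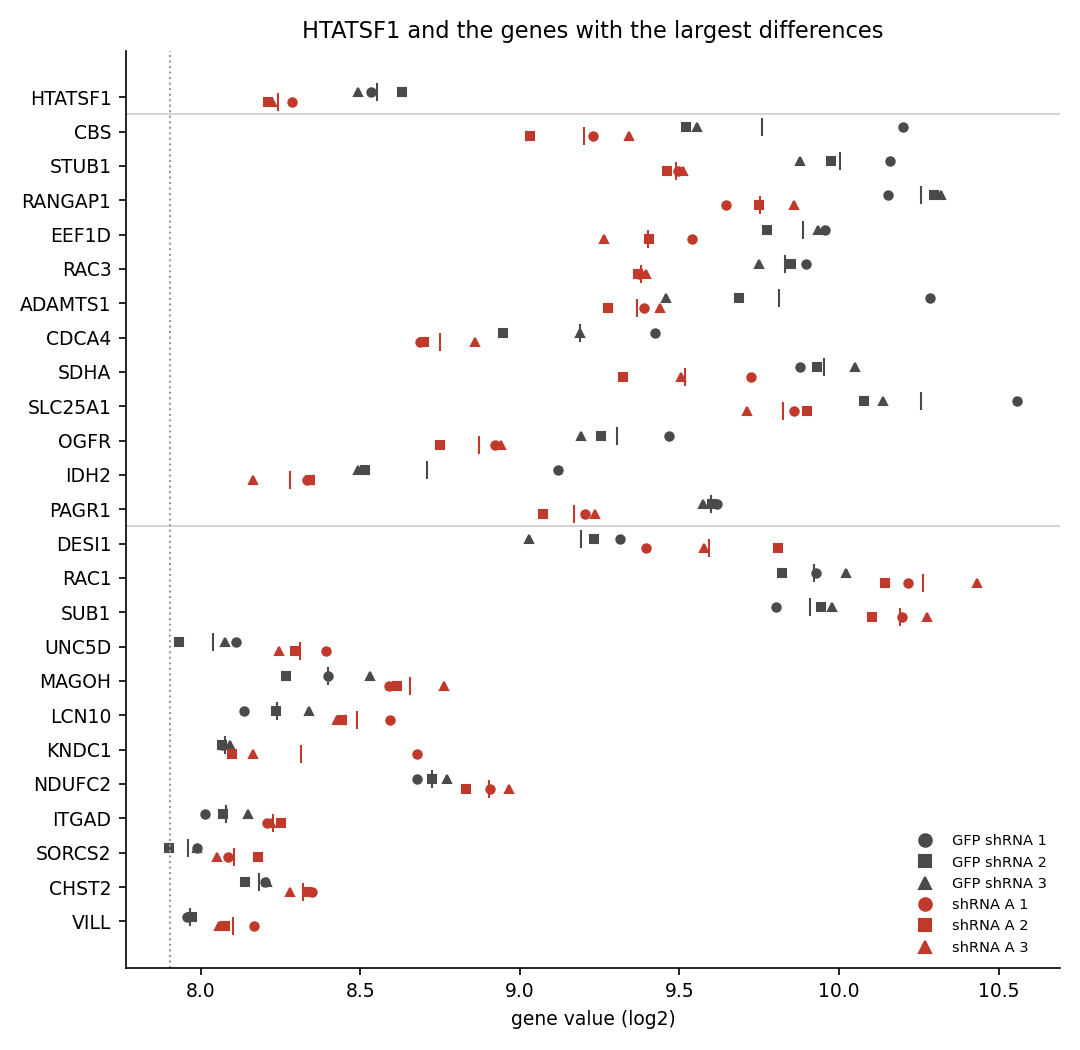
Log2 gene values of HTATSF1 and of the 12 lower and 12 higher genes with the largest differences, on the 3 GFP shRNA and 3 shRNA A arrays; points are arrays, dashes are group means and the dotted line is the mean array median. GFP shRNA 1 stands apart for CBS, ADAMTS1, IDH2 and SLC25A1, and shRNA A 1 for KNDC1.

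The arrays of shRNA B and of the empty vector did not enter the ranking of these genes. They did enter the filter on dim probe sets, which took the mean over all 11 arrays. Some of the higher genes kept few probe sets under that filter, such as KNDC1 with 11 of 62 and ITGAD with 7 of 43, while SUB1 kept 12 of 12. As that mean includes shRNA A and B, a dim probe set that is high with both passes more readily. With the filter over the 6 arrays alone, UNC5D differed by 0.14, SORCS2 by 0.11, ITGAD by 0.12 and VILL by 0.13. CHST2 differed by 0.15 there, and LCN10 and KNDC1 were unchanged. The part of the filter in the counts below was not tested, so these counts are no independent support for the named genes. In shRNA B minus empty vector, 9 of the 12 lower genes were lower too (75%), against 61% of all genes lower with shRNA A and 63.4% of those with a level of 8.5 or above. RAC3 differed there by -0.39, SLC25A1 by -0.49 and EEF1D by -0.36, whereas RANGAP1 differed by 0.16, ADAMTS1 by 0.10 and CBS by 0.05. Of the 12 higher genes 11 were higher (91.7%), against 55.4% of all genes higher with shRNA A, and DESI1 was the exception at -0.13. The control here is the empty vector and has 2 arrays, so that these are counts of sign with no test.

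The direct test of shRNA A against shRNA B found 0 genes with an adjusted p under 0.05 in limma over the 11 arrays (0%), with 651 genes at an unadjusted p under 0.05 (4.49%). RANGAP1 was lower with A than with B by -0.30 (unadjusted p = 0.00602, adjusted p = 0.999). No gene can be called particular to shRNA A from this test.

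No gene of the U2 snRNP or of splicing passed the threshold. In the list of U2 snRNP, SF3 and U2AF genes, 16 of 21 were lower with a median of -0.0761 (all genes 70.1% and -0.0238). Of them 4 were without overlap (19%), against 15% of all genes and 23.1% of genes with a level between 9 and 9.5. The median GFP shRNA level of this list was 9.28. Its ends were PUF60, a U2AF-like splicing factor, at -0.25 and SNRPB2, a U2 snRNP protein, at 0.06. The mean level of this list was 9.27 to 9.33 on the GFP shRNA arrays and 9.20 to 9.25 on the shRNA A arrays, without overlap. The mean level of all genes tested did not overlap either, at 8.397 to 8.452 and 8.369 to 8.396, so this separation is not particular to the list. The SF3B2 subunit, named after its values were seen, read 9.89, 9.86 and 9.72 with GFP shRNA and 9.62, 9.58 and 9.66 with shRNA A. Among other spliceosome genes 31 of 41 were lower (median -0.0597, 10 without overlap or 24.4%), from PRPF6 at -0.36 to LSM3 at 0.14. Their median GFP shRNA level was 8.94, and 22.7% of all genes with a level between 8.5 and 9 were lower without overlap. PRPF6, a protein of the U4/U6.U5 tri-snRNP, read 9.00, 9.01 and 8.96 against 8.66, 8.58 and 8.64, with 22 of 23 probe sets lower and an adjusted p of 0.221 in limma; with the mean of probe sets it differed by -0.22. SR proteins and hnRNPs were lower in 28 of 39 cases (median -0.0436), from SRSF9 at -0.33 to HNRNPU at 0.16.

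Transcription elongation factors, the other process linked to Tat-SF1, were lower in 33 of 38 cases with a median of -0.0813. Non-overlapping lower values were seen in 17 of the 38 (44.7%, against 15% of all genes), and 0 passed the threshold. The median GFP shRNA level of the list was 8.62, and 22.7% of all genes with a level between 8.5 and 9 were lower without overlap. SSRP1, a subunit of the histone chaperone FACT, was the lowest at 10.53, 10.38 and 10.24 with GFP shRNA and 9.99, 10.09 and 10.13 with shRNA A. CCNK, the cyclin of CDK12 and CDK13, was the highest at 0.08. SUPT5H, the SPT5 subunit of the elongation factor DSIF, and NELFB, of the pausing factor NELF, were looked at after their values were seen. SUPT5H read 9.14, 9.16 and 9.19 against 8.89, 8.78 and 8.90 (difference -0.31, standard error 0.0677, adjusted p = 0.256 in limma). NELFB read 9.39, 9.35 and 9.53 against 9.16, 9.11 and 9.08 (difference -0.30). In shRNA B minus empty vector the elongation list had a median of -0.00839, against -0.00647 for all genes. The list of U2 snRNP, SF3 and U2AF genes had a median of 0.0396 there, opposite in sign to that with shRNA A. Other spliceosome genes had one of -0.0298, and SR proteins and hnRNPs one of -0.0478.

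Of the lists examined, the one of ATF4 and the amino acid response had the lowest median, -0.155, with 32 of 34 genes lower. Non-overlapping lower values were seen in 8 of them (23.5%), against 15% of all genes. The median GFP shRNA level of the list was 9.33, and 23.1% of all genes with a level between 9 and 9.5 were lower without overlap. This list holds the amino acid synthesis and tRNA charging genes that ATF4 activates. CBS was its lowest and SLC7A11, the cystine transporter, its highest at 0.02. The median of the list in shRNA B minus empty vector was -0.104. CEBPG, the dimer partner of ATF4, named after its values were seen, read 10.20, 9.86 and 9.83 with GFP shRNA and 9.51, 9.39 and 9.63 with shRNA A (difference -0.45). GFP shRNA 1 was the highest array for CEBPG as for CBS, and without that array the median of the list was -0.0738, with 29 of 34 genes lower. Genes of DNA replication were lower in 43 of 48 cases (median -0.115), and the median was -0.103 without GFP shRNA 1. Of them 17 were without overlap (35.4%), against 15% of all genes and 23.1% of those between 9 and 9.5. Their median GFP shRNA level was 9.03. UHRF1, which reads hemimethylated DNA, was the lowest at -0.36 and TYMS, thymidylate synthase, the highest at 0.03. UHRF1 read 9.74, 9.93 and 9.67 against 9.46, 9.36 and 9.43. Genes of mitosis were lower in 33 of 37 cases (median -0.107), from AURKB at -0.34 to CENPA at 0.05, and without GFP shRNA 1 the median was -0.042. Of them 6 were without overlap (16.2%), close to the 15% of all genes and below the 23.1% of those between 9 and 9.5. Their median GFP shRNA level was 9.08.

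Lists of energy metabolism and protein turnover had medians closer to that of all genes than the ATF4, replication and mitosis lists had. Oxidative phosphorylation genes were lower in 36 of 48 cases (median -0.0852), from SDHA to NDUFC1 at 0.18, and genes of glycolysis in 26 of 31 (median -0.0728), from PFKL at -0.33 to GAPDH at 0.09. In these lists 20.8% and 25.8% were lower without overlap, against 15% of all genes. Their median GFP shRNA levels were 9.31 and 9.22, and 23.1% of all genes between 9 and 9.5 were lower without overlap. The share was 7.46% for cytosolic ribosomal proteins, at a median level of 10.4, and 6.45% for proteasome subunits, at 9.39. For all genes it was 19.1% at a level of 10 or above and 23.1% between 9 and 9.5. Cytosolic ribosomal proteins were lower in 46 of 67 cases (median -0.0421), with RPL41 at -0.37 and RPS13 at 0.33 as the ends. RPS13 was the higher on all shRNA A arrays, at 9.52, 9.42 and 9.84 against 9.31, 9.25 and 9.24. Proteasome subunits had a median of -0.0156 and genes of small RNA processing one of -0.0154, and both were above 0 after quantile normalization, at 0.0117 and 0.0152. Genes of RNA decay were lower in 22 of 28 cases (median -0.0557), p53 targets in 21 of 27 (-0.0539), histone genes in 8 of 12 (-0.0968), and sterol and fatty acid genes in 23 of 27 (-0.0624). Chaperones of the ER stress response were lower in 17 of 21 cases (-0.0324), and those of the cytosol in 19 of 24 (-0.0707). Interferon genes were lower in 13 of 26 (-0.00242), with IFITM2 as the highest at 0.30; it read 9.33, 8.91 and 8.54 with shRNA A, so that shRNA A 1 sets that value.

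**Figure D4:**
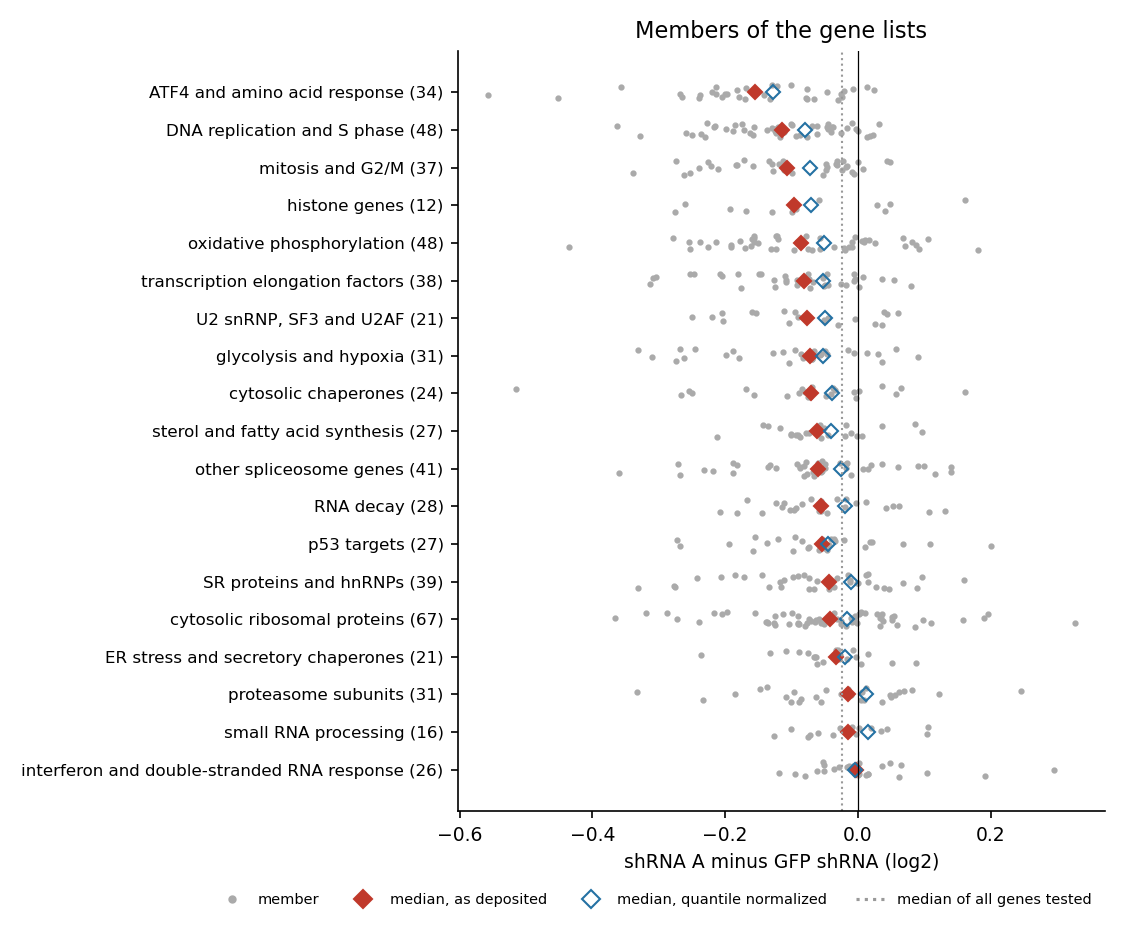
Difference in log2 gene value, shRNA A minus GFP shRNA, for each measured member of the gene lists; grey points are genes, filled diamonds are list medians of the values as deposited, open diamonds those after quantile normalization, and the dotted line is the median of all genes tested, -0.0238; numbers in brackets are measured members. The list of ATF4 and the amino acid response has the lowest median, -0.155.

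Markers of the labelled cell line were present. Of 11 measured genes known from HEK293, VIM, KRT8, KRT18, INA, NEFL, ENO2 and CDH2 lay above 9 in the GFP shRNA mean, while NEFM, NEFH, PAX2 and EYA1 lay within 0.3 of the array median. This list was lower in 9 of 11 cases, with a median of -0.115 (-0.0139 without GFP shRNA 1), and its mean level was 8.92 to 9.09 on the GFP shRNA arrays and 8.84 to 8.90 on the shRNA A arrays. Fibroblast markers (9 measured) had mean levels of 7.96 to 7.99 and 7.99, endothelial markers (6) 7.94 to 7.96 and 7.94 to 7.97, hepatocyte markers (5) 7.93 to 7.94 and 7.92 to 7.93, and the single measured blood marker, PTPRC, 7.91 to 7.92 and 7.92 to 7.93. These lie close to the array median. Markers of carcinoma lines (6) had mean levels of 8.19 to 8.28 and 8.14 to 8.17, with EPCAM the lowest in difference at -0.22.

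For the use of exons, 0 of 220978 probe sets had a splicing index with an adjusted p under 0.05 in limma (0%), and the smallest adjusted p was 0.479. An unadjusted p under 0.05 was reached by 18500 probe sets (8.37%). The splicing index of the 3 shRNA A arrays lay below that of all GFP shRNA arrays for 13055 probe sets (5.91%) and above it for 15563 (7.04%), and it differed by more than 0.5 without overlap for 71 lower and 212 higher probe sets. The log2 value itself lay below that of all GFP shRNA arrays for 26402 probe sets (11.9%) and above it for 6424 (2.91%). Probe sets at least 1 log2 unit dimmer than their gene had a median difference of 0.0627, and 15% of them were higher without overlap. Those at least 2 log2 units brighter than their gene also had a median above 0, at 0.0363, while those brighter by 0.5 to 1 had one of -0.00742. The level of a probe set relative to its gene thus moved with its splicing index, and its part in the single results below was not tested.

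The probe sets described next had the largest differences among 3337 higher and 8041 lower probe sets whose splicing index and log2 value both did not overlap, in genes with at least 6 probe sets and a gene difference under 0.2. In each of these 10 genes, none of the other probe sets had a splicing index difference as large as 0.5 times that of the named probe set in its direction. Each is a single probe set, and the build behind the probe positions is not given in the sources used here, so no exon number is attached to them.

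Among those higher with shRNA A, the smallest p was that of ANKRD34A, an ankyrin repeat protein. Its probe set 2356176 read 8.31, 9.15 and 8.43 with GFP shRNA and 9.64, 10.17 and 9.66 with shRNA A. The splicing index differed by 1.24 (standard error 0.274, adjusted p = 0.479 in limma). In SIN3B, a scaffold of histone deacetylase complexes, probe set 3823902 read 8.98, 8.22 and 7.10 against 9.73, 9.95 and 9.41 (index difference 1.63). The control arrays of SIN3B spread widely, and those of shRNA A did not. In PRKAR2A, a regulatory subunit of protein kinase A, probe set 2673762 read 8.00, 6.84 and 7.58 against 8.31, 8.51 and 8.31 (index difference 1.06). The empty vector arrays read 8.23 and 8.24 at that PRKAR2A probe set, closer to shRNA A than to the mean of GFP shRNA, 7.47. In DDX41, an RNA helicase found with the spliceosome, probe set 2889148 read 9.43, 8.33 and 8.22 against 9.66, 9.57 and 9.63 (index difference 1.10). The DDX41 groups are separated narrowly, because GFP shRNA 1 lies near the shRNA A arrays. The largest difference was 1.86 in PCYT2, an enzyme of phosphatidylethanolamine synthesis. It rested on a reading of 4.85 on GFP shRNA 3 beside 8.38 and 7.94 on its fellows, against 8.73, 8.73 and 8.98 with shRNA A. The difference was 0.77 without GFP shRNA 3. The empty vector arrays read 8.59 and 9.00 at that PCYT2 probe set, near the shRNA A arrays.

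Among those lower with shRNA A, the smallest p was that of VDAC2, a channel of the outer mitochondrial membrane. Its probe set 3252587 read 9.53, 9.04 and 9.47 with GFP shRNA and 8.37, 8.81 and 8.57 with shRNA A, while the gene differed by 0.11 the other way. The splicing index differed by -0.87 (standard error 0.142, unadjusted p = 0.000657, adjusted p = 0.479 in limma). In LRPAP1, a chaperone of LDL receptor family proteins, probe set 2758323 read 8.90, 9.15 and 9.16 against 8.14, 8.41 and 7.43 (index difference -0.98). In NCLN, nicalin of the ER membrane, probe set 3816871 read 8.43, 9.00 and 8.52 against 7.33, 8.25 and 8.15 (index difference -0.77, and -0.51 without shRNA A 1). In SEMA5B, a semaphorin, probe set 2692229 read 9.34, 9.90 and 9.59 against 8.27, 9.22 and 8.11 (index difference -1.02). On shRNA A 1 and 3 the SEMA5B probe set was itself the median of its gene, so that its index there is 0. The shRNA A arrays of LRPAP1, NCLN and SEMA5B spread more than the control arrays, although the groups stayed apart. In CRY2, a repressor of the circadian clock, probe set 3329038 differed most, by -2.14 (-1.39 without shRNA A 3), at 9.27, 9.25 and 8.74 against 7.53, 7.77 and 5.40. The empty vector arrays read 7.83 and 7.76 at that CRY2 probe set, close to shRNA A 1 and 2, so that the controls of the series differ among themselves there.

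**Figure D5:**
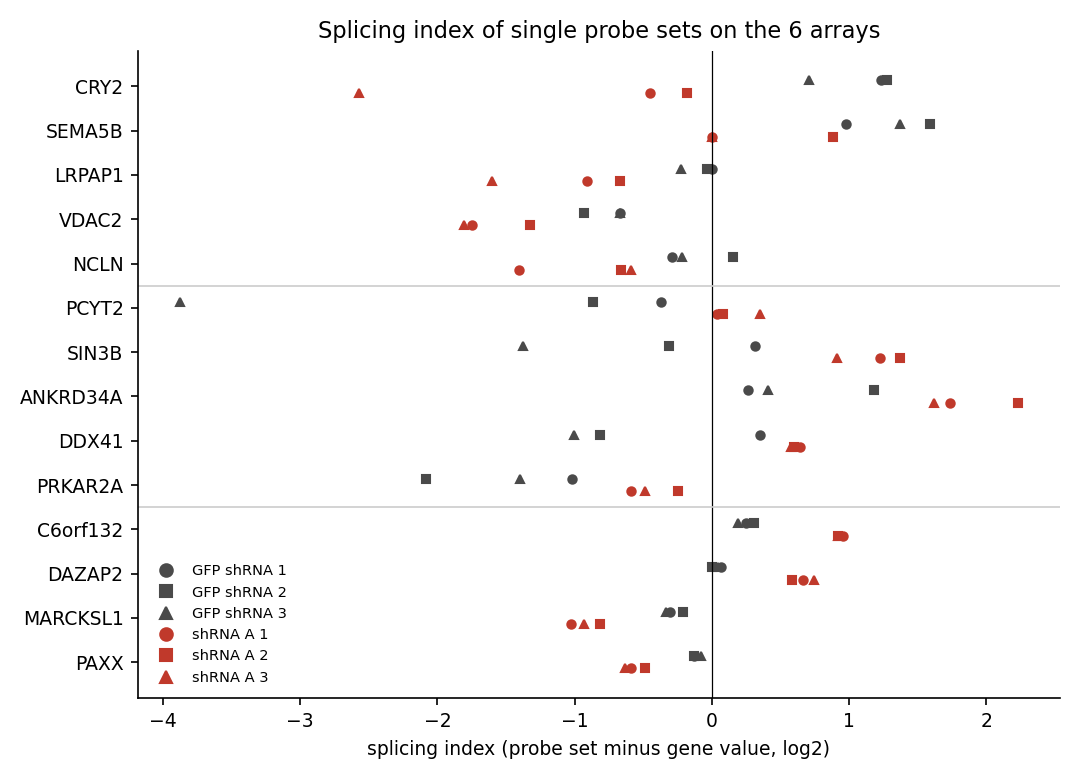
Splicing index (log2 probe set minus gene value) on the 3 GFP shRNA and 3 shRNA A arrays, 1 point per array, for the 5 lower probe sets with the largest differences (top block), the 5 higher (middle block) and the 4 with the smallest p (bottom block, named after their values were seen). A single array sets much of the difference for PCYT2 (GFP shRNA 3) and CRY2 (shRNA A 3).

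In shRNA B minus empty vector, 7 of these 10 probe sets had the same sign of the splicing index difference (70%, against 57.3% of all probe sets). SIN3B differed there by 1.43, ANKRD34A by 0.67 and VDAC2 by -0.72. The probe sets of opposite sign were those of CRY2 at 1.62, PRKAR2A at -0.36 and PCYT2 at -0.16.

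Probe sets chosen from those with the smallest p are described next, and the choice was made after their values were seen. Those of C6orf132, DAZAP2, MARCKSL1 and PAXX had the 4 smallest p. Those of HASPIN and SRSF9 were picked from further down the order, and ZNF33A, NUP93, XRCC5, CTDSP2 and ADAM9, which precede SRSF9 there, are not described. In C6orf132, probe set 2953944 read 8.33, 8.31 and 8.29 with GFP shRNA and 9.07, 8.92 and 9.03 with shRNA A (index difference 0.68, standard error 0.0519, adjusted p = 0.479 in limma). In DAZAP2, a proline-rich adaptor, probe set 3414865 read 9.49, 9.40 and 9.44 against 9.85, 9.71 and 9.92, while the gene differed by -0.24. Its index difference of 0.63 was 0.23 with the higher floor. In HASPIN, the kinase of histone H3 in mitosis, probe set 3706754 read 9.34, 8.93 and 9.38 against 10.09, 9.94 and 9.91 (index difference 0.78). In SRSF9, an SR protein, the index of probe set 3474512 differed by 0.46; the probe set itself read 9.47, 9.39 and 9.58 against 9.53, 9.60 and 9.71 and overlapped, and the gene was lower by -0.33. In MARCKSL1, a relative of the kinase C substrate MARCKS with 4 probe sets in use, probe set 2405002 read 10.25, 10.41 and 10.26 against 9.73, 9.70 and 9.68 (index difference -0.64), and in PAXX, a factor of DNA end joining, probe set 3195097 had an index difference of -0.46 (-0.27 with the mean of probe sets).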

How the data were processed

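T-REx-293 cells were profiled on Affymetrix Human Exon 1.0 ST arrays, named in the labels. The deposited table holds log2 values of 1399022 probe sets, made by the submitters. Software, background correction, normalization and build are not given there or in the labels, and probe sets with no estimate (a filler value) were treated as missing. Array medians were nearly equal. The number of arrays limits the precision.

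A platform table gave 1 gene symbol to 355799 probe sets and several to 15195, and did not list 1028028. Of 19536 symbols, 16450 were current in RefSeq (GRCh38.p14), 2965 were updated and 121 kept. Probe sets with 1 symbol, an estimate on all 11 arrays and a mean of at least 7.91 (the median of all probe set means) were used in genes with 4 or more. Gene values were medians; the typical (median) gene had 12 probe sets.

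Differences were tested with limma 3.58.1 in R 4.3.3 (lmFit, eBayes with trend) on the 6 arrays, and p-values were adjusted by Benjamini-Hochberg over all genes or probe sets. Shifts of single values were tested by exact permutation of arrays. The scripts were tested on simulated data. The comparison of shRNA A with shRNA B used all 11 arrays and 4 constructs. Genes and probe sets were named by size, as the text states where they appear, and list members as the highest and lowest. The members and lists were chosen with earlier results of these data known. Alternatives were the filter on dim probe sets, the gene summary, quantile and cyclic loess normalization, the fit without trend, with all constructs or with the replicate number, and leaving out each array. shRNA A 3 was the only array of the 6 with a suffix in its array name, so that leaving it out also covers that difference. Promoters were those of the RefSeq table, matched by symbol for 11638 genes (80.3%).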

Additional observations from a re-analysis of the deposited data

How the results depend on the processing

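The number of genes with an adjusted p under 0.05 in limma, 0 of 14496 (1613 at an unadjusted p under 0.05), was 3 with dim probe sets kept (NRN1L, SPATA2L and ZNF598, 18142 genes tested), 4 with the floor raised by 0.5 (DYRK2, HIRIP3, MBD3 and SLX9, 7232 tested) and 1 with the mean of probe sets (CEBPE). It was 0 with quantile normalization (1477 at an unadjusted p under 0.05, 1187 of them lower) and with cyclic loess, chosen after seeing the data (1336, 1015 lower). Leaving out an array gave 0 to 1 genes, and the 1 was CEBPE, without GFP shRNA 1. For probe sets it gave 0 to 1, the 1 being 3879120 of INSM1 without GFP shRNA 1 (index difference 3.14, and 2.12 with all arrays). For shRNA A against shRNA B it gave 0 to 1, the 1 being FGF20 without shRNA A 2. HTATSF1 was lower under all alternatives, by -0.34 to -0.25, with an adjusted p of 0.0773 to 0.499. With dim probe sets kept, KNDC1 (-0.0549), ITGAD (-0.00152), CHST2 (-0.0187) and CLEC10A (-0.00906) changed sign; these are near the array median, and the cause was not tested.

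The groups share replicate numbers. The deviations of same-numbered arrays from their group means correlated at -0.0152, 0.0461 and -0.0403 over all genes. Such values do not exclude a shared batch that moves only some genes, and whether the arrays share one was not tested. With the replicate number as a block, 0 genes (1724 at an unadjusted p under 0.05) and 0 probe sets (17433) passed in limma, the adjusted p of HTATSF1 was 0.321, and the test of shRNA A against shRNA B gave 0 genes (644).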
